A study of Homo sapiens with 72 samples.

Results

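The genes described here act in cell death driven by the tumour suppressor p53: BBC3, PMAIP1, BAX, APAF1, the death receptor genes FAS, TNFRSF10A and TNFRSF10B, the decoy receptor genes TNFRSF10C and TNFRSF10D, and TP53I3. They were chosen by name from the gene column of the array, which gave 15 probes for 10 genes, of 41000 probes and 30142 gene names in all. All 15 probes passed the filter on dim spots. Of the whole array, 25237 probes for 18339 gene names passed it.

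IMR-90 cells, a strain of normal human lung fibroblasts, were exposed to 0.5 Gy of α-particles or were sham irradiated, and RNA was collected 0.5, 1 or 2 h later, or 4, 6 or 24 h later. Cells on the thin Mylar base of an outer dish were irradiated directly. Cells on the thicker, shielded base of an inner dish, which touched the irradiated cells in one layer, were the bystanders. Each of the 18 groups (irradiated, bystander or control at 1 of 6 times) held 4 replicates from 4 independent experiments, with 1 one-colour array for each RNA, 72 arrays in all. All groups were the same cell strain, with no agent other than the irradiation, and the dishes of 1 experiment were handled in parallel and share a replicate number. The arrays asked how the direct and the bystander responses differed and how they moved over time. All 9 fibroblast markers, such as COL1A2 and DCN, were well above background on 72 of 72 arrays. Of 11 markers of other lung cell types, the epithelial cadherin CDH1 and the myeloid enzyme LYZ were above it on 0 arrays, the leukocyte gene PTPRC and the keratin gene KRT5 on 1 array each, and the endothelial genes PECAM1 and CDH5 on 2 and 12 arrays. The epithelial gene TACSTD1 was above background on 44 arrays, at a mean level of -5.55 on the scale given below. SFTPC, VWF, CD3E and CD14 were above background on 72 arrays, at mean levels of -1.77, -3.29, -3.46 and -2.90.

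After DNA damage p53 is stabilised and switches on genes of both routes to apoptosis. On the mitochondrial route the BH3-only proteins PUMA (BBC3) and NOXA (PMAIP1) block the protective members of the BCL2 family, BAX opens the outer mitochondrial membrane, and APAF1 joins released cytochrome c to activate caspases. On the other route FAS and the TRAIL receptors (TNFRSF10A and TNFRSF10B) pass a signal from their ligands at the cell surface, and the decoy receptors bind TRAIL without passing a full death signal. Normal fibroblasts are known to answer such damage more by growth arrest than by death.

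A level is given here as log2 of the spot intensity minus log2 of the array's 75th percentile, so that 0 is that percentile and 1 unit is a factor of 2. A difference is the log2 difference between samples of 1 experiment, with its SD over the 4 experiments. A probe was called where the p-value of the limma test, adjusted over 25234 tested probes (Benjamini-Hochberg), was below 0.10. All p-values below are such adjusted values unless named otherwise. At a single time the limma test took its spread from all 12 arrays of that time, controls included. Its p-value thus does not measure the SD printed beside a difference. The number of arrays limits the precision. PMAIP1, FAS and the BAX probe A_23_P208706 were printed 10 times on each array and the other probes 1 time.

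Death receptor genes and BBC3 rose in irradiated cells, mainly between 2 and 6 h. Against control, 3 of the 15 probes were called higher at 0.5 h, when 5.81% of all tested probes were. At 2 h 5 probes were called higher (background 3.1%), at 4 h 5 probes (background 0.777%) and at 6 h 7 probes of 6 genes (background 4.89%). The share of the 15 probes was thus 33.3% at 2 and at 4 h and 46.7% at 6 h, and none of the 15 was called lower at any time. No probe was called at 1 h, when limma called 0% of all probes higher with 6795 at an unadjusted p below 0.05, nor at 24 h, when 0.111% were called higher with 3349 below that limit. The median difference of the 15 probes was 0.69 at 4 h and 0.62 at 6 h, while that of all tested probes was -0.01 and 0.02. In RNA from whole dishes, a change in the share of cells that express a gene and a change in its RNA per cell cannot be told apart. Single experiments moved the counts: without replicates 1, 2, 3 and 4 in turn they were 1, 0, 4 and 1 at 0.5 h, 0, 0, 0 and 9 at 2 h, and 1, 3, 3 and 5 at 4 h, but 6, 5, 5 and 5 at 6 h. The calls over all probes, in either direction, moved as well. They were 2501, 1462, 254 and 2654 at 0.5, 2, 4 and 6 h with all replicates. Without replicates 1 to 4 in turn they were 582, 0, 1447 and 350 at 0.5 h, 28, 25, 61 and 4914 at 2 h, 25, 334, 134 and 132 at 4 h, and 783, 1270, 1862 and 208 at 6 h, so the counts of 0 at 2 h fall where few probes of the array were called and the 9 where many were. With no term for the experiment (no replicate block) the counts of the 15 were 0, 0, 2 and 3 at 0.5, 2, 4 and 6 h (14, 2, 26 and 48 over all probes). With no scaling they were 0, 4, 1 and 5 (214, 6927, 162 and 4442 over all probes), so that the 4 at 2 h are near the background of that setting, and with no filter on dim probes 1, 2, 1 and 5 (454, 883, 41 and 428).

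Bystander cells gave few calls against control. At 0.5 h 2 probes (PMAIP1 and TNFRSF10A) were called higher, with a background of 4.34%. Without replicate 1 or without replicate 2 there were 0, and also 0 with no scaling, no filter on dim probes or no replicate block. Limma called 0 of the 15 probes at 1 h (background 0%, 3624 probes at an unadjusted p below 0.05), 2 h (0.198%, 3905 probes), 4 h (0.487%, 3984 probes), 6 h (0.214%, 3661 probes) and 24 h (0%, 2815 probes). With so few calls over all probes, these counts of 0 say nothing about the 15. Without replicate 4, 4 of the 15 were called at 2 h, when 3117 of all probes were, against 56 with all replicates. These comparisons use the same control arrays as those of the irradiated cells.

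**Figure D1:**
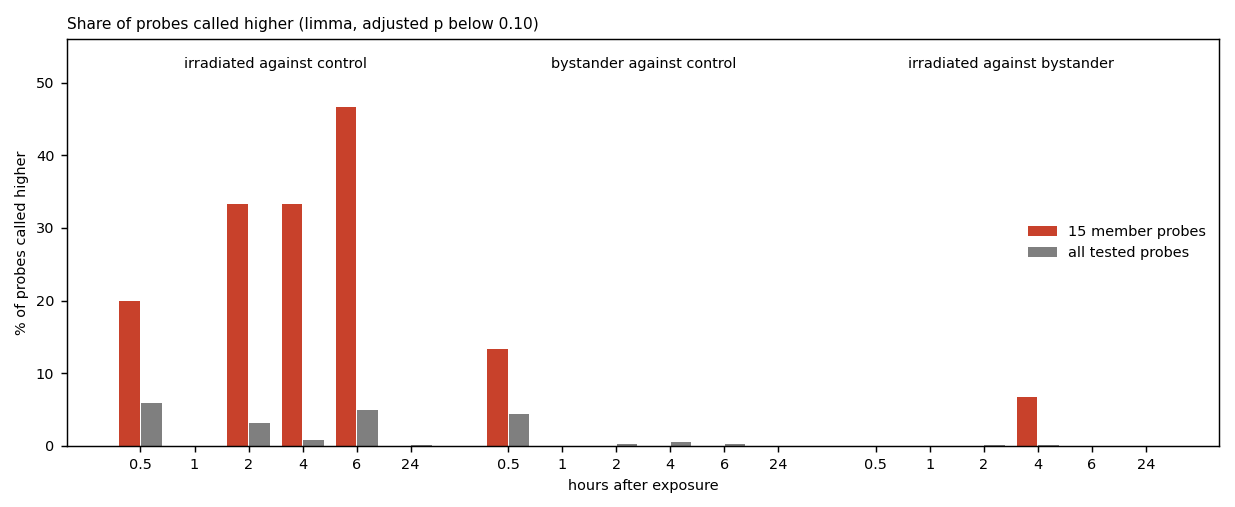
Share of the 15 probes (percent) called higher in each of the 18 comparisons, beside the share of all tested probes called higher, with the 6 times along an axis that is not to scale. The share reached 46.7% in irradiated against control at 6 h, where 4.89% of all probes were called. In bystander against control it was 0% from 1 to 24 h, where only 0 to 0.487% of all probes were called higher.

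BBC3 encodes PUMA, and its 3 probes differed. Probes A_23_P382775 and A_24_P305312 rose after irradiation, and A_23_P90189 did not pass the test in any comparison. On A_23_P382775 the control levels at 2 h were 1.09, 0.91, 1.81 and 2.11 in replicates 1 to 4. The bystander levels were 1.06, 0.98, 2.11 and 0.24, and the irradiated levels 3.06, 2.81, 3.85 and 2.44. All 4 irradiated samples lay above all 4 control and all 4 bystander samples. The difference from control was 1.56 ± 0.82 (SD, n = 4; 2.94-fold, adjusted p = 0.0428), with 0.33 in the fourth experiment and 1.90 to 2.03 in the others. This call was lost when replicate 1, 2 or 3 was left out (adjusted p = 0.24, 0.252 and 0.189).

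The same probe separated irradiated from bystander cells more evenly. Irradiated cells exceeded the bystander cells of their own experiment by 1.94 ± 0.20 at 2 h (3.84-fold) and by 2.00 ± 0.54 at 4 h (3.99-fold). The groups did not overlap at either time, but the single-time tests gave adjusted p = 0.135 and 0.131. At 6 h the difference was 1.23 ± 0.16. From 1 h on, all 4 experiments gave a positive difference at each of 5 times. Without replicate 4 the difference at 2 h passed the test (adjusted p = 8.18e-05).

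Averaged over the 6 times within each experiment, so that each experiment gives 1 value, the irradiated minus bystander difference of A_23_P382775 was 1.12, 0.99, 0.86 and 1.19. Its mean was 1.04 ± 0.14 (2.05-fold, 95% confidence interval 0.92 to 1.16, adjusted p = 2.48e-05), the lowest p of all tested probes, with 21 of 24 pairs higher. Averaged in the same way against control, the irradiated difference was 1.09, 1.30, 0.68 and -0.24 in the 4 experiments (mean 0.71 ± 0.68, adjusted p = 0.174). The fourth experiment alone was below 0, and without it the mean was 1.02 (adjusted p = 0.046). The control arrays of replicate 4 lay on average 0.73 above those of the other replicates on this probe.

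Probe A_24_P305312, at a level of -3.07 on average, read the same gene at 0.119 times the 75th percentile. Its 60 bases are shown beside those of the discordant probe A_23_P90189, because the pair differ in base composition. Capitals mark runs of at least 3 bases made only of C and G.
A_24_P305312: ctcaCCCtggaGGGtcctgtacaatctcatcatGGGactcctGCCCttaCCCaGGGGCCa
A_23_P90189: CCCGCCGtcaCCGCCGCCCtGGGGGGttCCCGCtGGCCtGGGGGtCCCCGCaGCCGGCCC
The first is 60% G and C, with 22 bases in such runs. The second is 85%, with 50 bases in such runs, and 0.0396% of the probes that passed are as rich in G and C, where the median probe has 43.3%.

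On A_24_P305312 the irradiated levels at 4 h were -1.86, -3.17, -1.70 and -2.12. The control levels were -2.94, -4.19, -2.48 and -2.71, and the bystander levels -3.76, -4.44, -2.88 and -3.46. Replicate 2 was the lowest in each group, so the groups overlapped although every experiment gave a positive difference. Irradiated cells were higher than control at 2 h by 1.18 ± 0.72 (adjusted p = 0.0806) and at 4 h by 0.87 ± 0.23 (adjusted p = 0.0726). They were higher than bystander cells at 4 h by 1.42 ± 0.32 (2.67-fold, adjusted p = 0.0973). The 2 h call against control was lost without replicate 1, 2 or 3, and the 4 h call against control without any 1 replicate. The call against bystander cells was also lost without any 1 replicate (adjusted p = 1, 0.578, 0.552 and 0.187 without replicates 1 to 4). In each of those fits 0 probes of the whole array were called in that comparison, against 2 with all replicates. The loss is thus not particular to this probe. Averaged over the times, irradiated exceeded bystander cells by 0.60 ± 0.05 (1.52-fold, adjusted p = 0.0013), with 0.56 to 0.67 in the 4 experiments.

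Probe A_23_P90189 read 98.9 times the 75th percentile and ranged from 4.56 to 8.0 over the 72 arrays. Its averaged irradiated minus bystander difference was 0.08 (95% confidence interval -0.05 to 0.21, adjusted p = 0.561). Over the 24 irradiated minus bystander differences (4 experiments at 6 times), which share arrays, slides and experiments, its Pearson r was 0.204 with A_23_P382775. The other pair of BBC3 probes gave r = 0.807. With the BAX probe A_23_P346309, of 83.3% G and C, A_23_P90189 gave r = 0.791. Over all 25236 other probes the median r with A_23_P90189 was 0.08 and 8.13% exceeded 0.5. Among the 375 probes of at least 70% G and C, a limit chosen after the values were seen, the median r was 0.59 and 64.3% exceeded 0.5. Probes nearest to A_23_P90189 were those of DNM1P35 (r = 0.968, 75% G and C), LBX1 (r = 0.963, 55%) and LCE5A (r = 0.963, 70%), which were bright as well, at mean levels of 6.52, 6.16 and 5.85. Among the brightest 1% of probes, also taken after the values were seen, the median r was 0.41 over 252 probes, and 0.38 over the 229 of them below 70% G and C. Among 352 probes of at least 70% G and C outside that brightest 1% it was 0.56. The parts of base composition and of brightness in this disagreement were not tested.

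**Figure D2:**
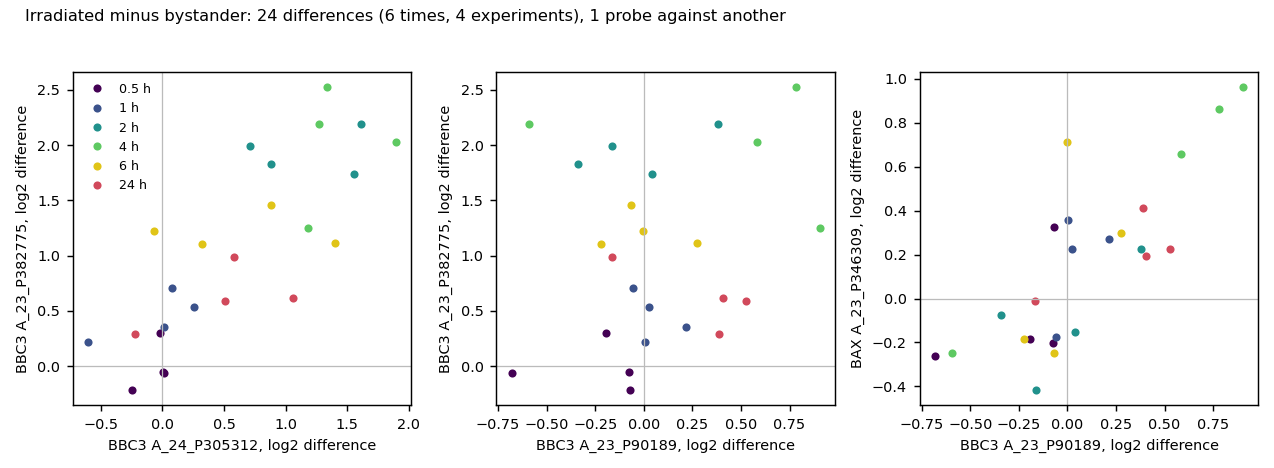
Irradiated minus bystander difference (log2) of 1 probe against another in 3 panels, with 1 point for each of 4 experiments at 6 times (24 points, coloured by time). The BBC3 probes A_24_P305312 and A_23_P382775 rise together (r = 0.807), A_23_P90189 shows little relation to A_23_P382775 (r = 0.204), and it runs with the BAX probe A_23_P346309 (r = 0.791).

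PMAIP1, which encodes NOXA, rose at 0.5 h in irradiated and in bystander cells. Its control levels at 0.5 h were -0.13, 0.01, -0.13 and -0.29 in replicates 1 to 4. The irradiated levels were 0.57, 1.00, 1.35 and 0.33, and the bystander levels 0.49, 0.91, 1.44 and 0.01. All irradiated samples lay above all control samples, and bystander replicate 4 met the highest control. PMAIP1 was the only member probe with irradiated levels above all control levels at 0.5 h. At that time 4.55% of all probes that passed had such levels, and limma called 5.81% of all tested probes higher in irradiated cells. The 1 member probe is thus given as a description. Irradiated cells were higher than control by 0.95 ± 0.39 (1.93-fold, adjusted p = 0.0322) and bystander cells by 0.85 ± 0.54 (1.80-fold, adjusted p = 0.0419). Without replicate 2 the irradiated call was lost (adjusted p = 0.177), and the bystander call was lost without replicate 1 or 2 (adjusted p = 0.133 and 0.191). Both were also lost with no scaling (adjusted p = 0.276 and 0.455 for irradiated and bystander cells), no filter (0.108 and 0.115) and no replicate block (0.266 and 0.338). Irradiated and bystander cells differed by 0.10 ± 0.17, and the 4 experiments fell in the same order in both groups.

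PMAIP1 was again higher in irradiated cells at 2 h, by 0.67 ± 0.35 (adjusted p = 0.0752), and at 6 h. The 2 h call was lost without replicate 1, 2 or 3 and with no replicate block. At 6 h the control levels were -0.67, -0.73, -0.83 and -0.10, and the irradiated levels 0.08, 0.07, -0.11 and 1.21. Replicate 4 stood high in every group at that time, with a bystander level of 0.83. The difference from control was 0.90 ± 0.28 (1.86-fold, adjusted p = 0.0204), and 0.76 without replicate 4 (adjusted p = 0.131). The call was also lost with no replicate block. Bystander cells at 6 h differed from control by 0.57 ± 0.27 (adjusted p = 0.212). Averaged over the times, the irradiated minus bystander difference was 0.11 (95% confidence interval 0.02 to 0.21, adjusted p = 0.251).

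BAX, the pore-forming effector, had 3 probes for 3 transcript variants and none was called in any of the comparisons. The probe of the epsilon variant, A_23_P208706, read 2.46, 2.45, 3.76 and 3.85 in controls at 4 h. The irradiated levels at that time were 3.25, 2.61, 3.78 and 3.13 and the bystander levels 3.02, 2.15, 3.15 and 2.15. The 3 groups overlapped, but within each experiment the irradiated level was above the bystander level, by 0.58 ± 0.32 (4 of 4 pairs, adjusted p = 1). On A_23_P346311 that difference at 4 h was 0.76 ± 0.45 (4 of 4 pairs, adjusted p = 1), and on A_23_P346309 0.56 ± 0.55 (3 of 4 pairs). At 24 h the differences on A_23_P208706 and A_23_P346311 were 0.51 ± 0.27 and 0.50 ± 0.38 (4 of 4 pairs each, adjusted p = 1), and at 6 h -0.17 and 0.01 (2 of 4 pairs each). On A_23_P346309 the 24 h difference was 0.205 (3 of 4 pairs). At 1 h the difference on A_23_P346311 was -0.36 ± 0.19, with irradiated cells lower in 4 of 4 pairs. Averaged over the times, irradiated minus control differences of the 3 probes were -0.20, -0.09 and -0.09, and irradiated minus bystander differences 0.13, 0.15 and 0.15 (adjusted p = 0.241, 0.126 and 0.17).

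The spread between experiments was wide on BAX against control. In A_23_P208706 the averaged irradiated minus control difference was 0.61, 0.14, -0.41 and -1.15 in experiments 1 to 4. The control arrays of replicate 4 had the highest of the 4 control levels at 5 of 6 times, 0.94 above the others on average. The same excess was 0.73, 0.95 and 0.88 on the 3 BBC3 probes, 0.70 on TP53I3, 0.13 on PMAIP1 and -0.30 on FAS. The part of these arrays in the differences from control was not tested. Irradiated minus bystander differences do not use these arrays, but the single-time tests of those differences take their spread from them as well. Control levels of A_23_P208706 also moved from 3.48 at 1 h to 1.28 at 2 h, and since each time was hybridised on slides of its own, time and slide cannot be told apart for a level.

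The sigma variant probe of BAX is shown as a further probe rich in G and C, with capitals as above.
A_23_P346311: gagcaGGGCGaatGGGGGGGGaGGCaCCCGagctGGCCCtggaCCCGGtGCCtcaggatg
It is 73.3% G and C, with 33 bases in such runs and a longest run of 8. Its irradiated minus control difference at 2 h was -0.08, and without replicate 4 it was 0.26 and passed the test (adjusted p = 0.0883).

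APAF1, the scaffold of the apoptosome, was not called in any comparison between the treatments, and its group means ran from -3.46 to -2.14 over the 18 groups. At 4 h the control levels were -2.36, -1.55, -2.41 and -2.34, the bystander levels -2.47, -2.17, -2.54 and -2.47 and the irradiated levels -2.10, -1.81, -2.40 and -2.26. The groups overlapped, and control replicate 2 was the highest of the 12. The difference between bystander and control cells at 0.5 h was -0.42. Averaged differences were -0.06 for irradiated against control and 0.03 for irradiated against bystander (95% confidence interval -0.11 to 0.17).

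FAS, the receptor of FAS ligand, rose at 4 and 6 h. Its control levels at 4 h were -0.94, -0.87, -1.13 and -1.09 in replicates 1 to 4. The bystander levels were -0.69, -0.52, -0.87 and -0.76, and the irradiated levels 0.13, 0.56, -0.22 and 0.16. Every irradiated sample was above every bystander and every control sample, while the bystander and control ranges met at -0.87. The difference from control was 1.17 ± 0.23 (2.25-fold, adjusted p = 0.00563) and that from bystander cells 0.87 ± 0.18 (1.82-fold, adjusted p = 0.153).

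At 6 h FAS stood at 0.31, 0.21, -0.06 and 0.26 in irradiated cells. The control levels were -0.84, -1.2, -1.05 and -1.18, and the bystander levels -0.61, -0.45, -0.66 and -0.66. The 3 groups did not overlap at all, with the bystander samples between the control and the irradiated samples. FAS was the only member probe with bystander levels above all control levels at 6 h (background 0.959% of all probes that passed). With 1 such probe, the gap between bystander and control samples is given as a description. Irradiated cells exceeded control by 1.25 ± 0.22 (2.37-fold, adjusted p = 0.00573). Bystander cells lay 0.47 ± 0.22 above control (1.39-fold) with adjusted p = 0.247, which did not pass. Over pairs on 1 slide (replicates 1, 3 and 4), the irradiated minus control means were 1.08 at 4 h and 1.19 at 6 h.

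By 24 h the irradiated FAS levels were -0.28, -0.85, -0.60 and -0.20, within reach of the controls, and the difference was 0.28 ± 0.38 (adjusted p = 0.546). Averaged over the times, irradiated exceeded bystander cells by 0.47, 0.33, 0.36 and 0.43 (mean 0.40 ± 0.06, adjusted p = 0.00249). One of the 3 FAS transcription starts has, 122 bases upstream, an exact match to the p53 half-site consensus, shown in capitals with 10 bases on each side (RefSeq, GRCh38.p14, chr10:88991299-88991328, plus strand).
FAS upstream: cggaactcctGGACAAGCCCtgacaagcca
Windows of 250 bases before to 50 after the start were at hand for 6 members (BBC3, PMAIP1, BAX, FAS, TP53I3 and APAF1), and FAS was the only one of them with such a match. Of all 35116 windows 6.63% hold one, and 8.06% of 27305 genes have one in any window. Binding of p53 was not measured here.

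**Figure D3:**
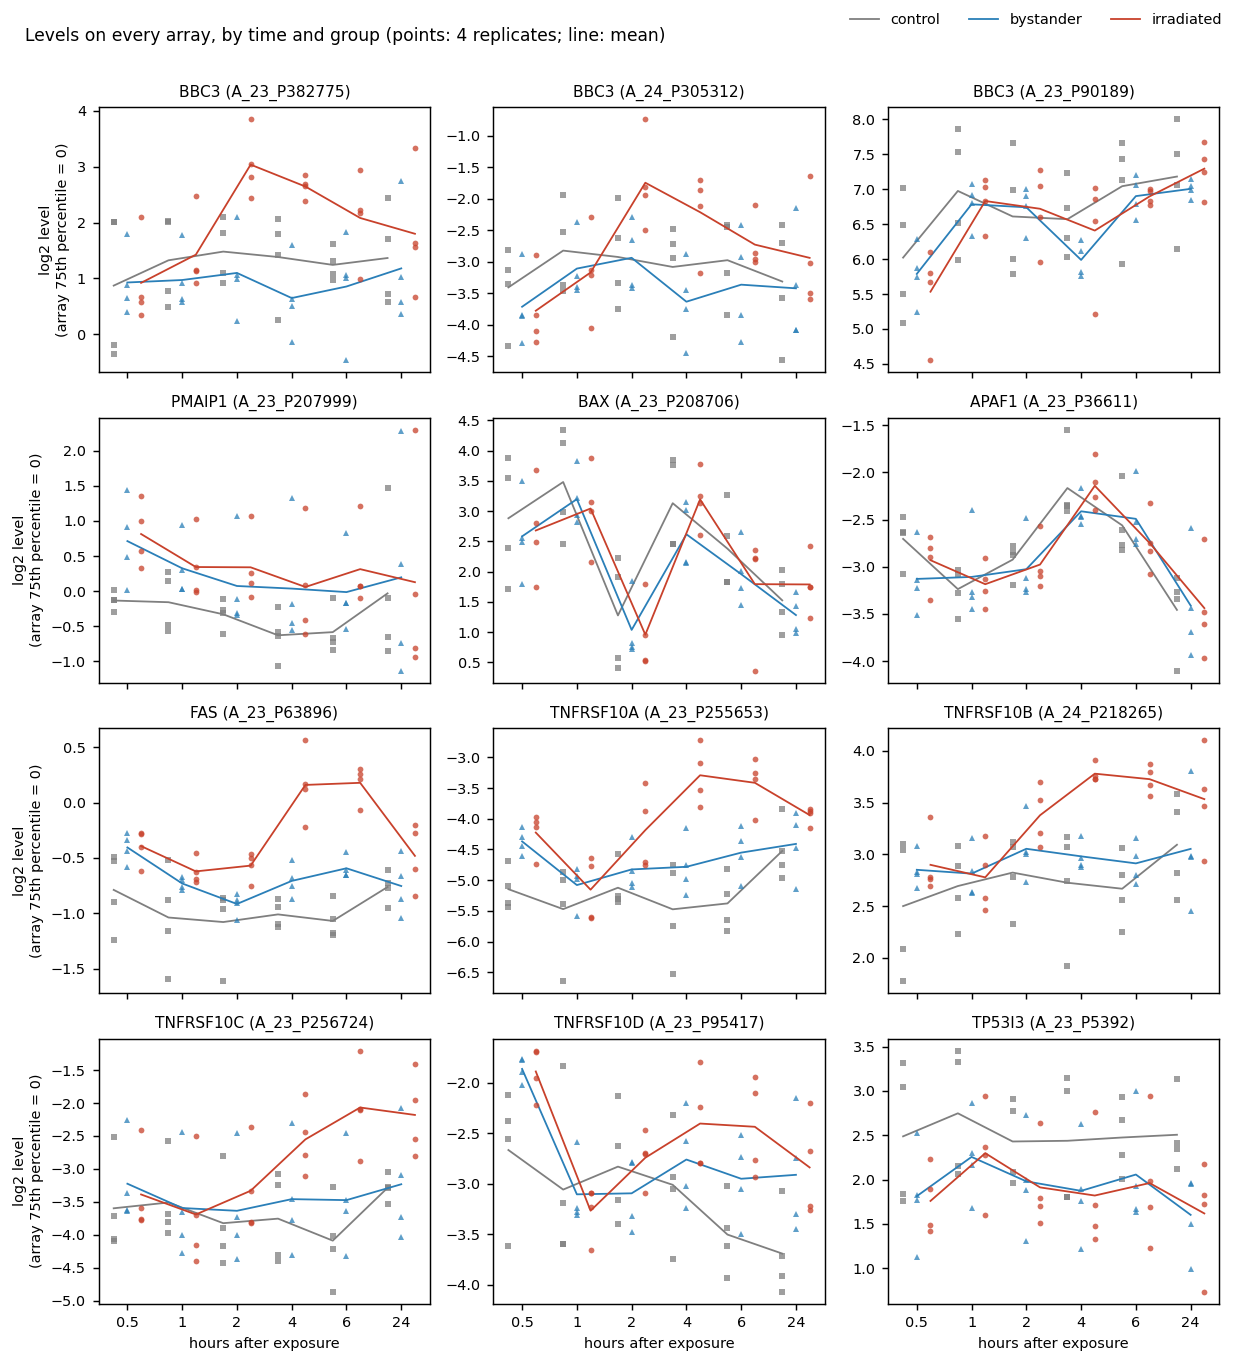
Level (log2 intensity minus the array's 75th percentile) of 12 probes of the 10 genes at 0.5 to 24 h, with 4 replicates as points (control grey squares, bystander blue triangles, irradiated red circles) and lines through the means, on a time axis that is not to scale. Irradiated FAS, TNFRSF10A and TNFRSF10B levels lie above both other groups at 4 and 6 h, TNFRSF10C levels at 6 h lie above control and overlap the bystander levels, and the 3 groups overlap for BAX and APAF1.

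TNFRSF10A, which encodes the TRAIL receptor DR4, was dim and was called at 4 h. It was not well above background on 6 of the 72 arrays, all of them controls (replicates 1 and 2 at 4 h, and 1 array each at 0.5, 1, 2 and 6 h), and at the floor of the scale on 1 array. Control levels at 4 h were -5.75, -6.52, -4.75 and -4.88. The irradiated levels were -3.09, -3.53, -3.82 and -2.72, and the bystander levels -4.76, -4.99, -5.23 and -4.15. Every irradiated sample exceeded every other sample at that time, and bystander and control levels overlapped. The irradiated minus control difference was 2.19 ± 0.90 (4.55-fold, adjusted p = 0.017), and without replicate 1 it was 2.03 (adjusted p = 0.166). Its size depended on the background correction, since with normexp, which adds an offset to each signal, it was 1.02 (adjusted p = 0.0243), and with 2 of the 4 controls not well above background the fold is not a precise value.

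At 6 h TNFRSF10A differed from control by 1.97 ± 0.60 (3.91-fold, adjusted p = 0.00649), again without overlap, and by 1.00 with normexp (adjusted p = 0.0145), and with control replicate 2 not well above background this fold is not precise either. Smaller calls stood at 0.5 h, with 0.92 ± 0.36 in irradiated cells (adjusted p = 0.0416) and 0.78 ± 0.41 in bystander cells (adjusted p = 0.0675), and at 2 h with 0.94 ± 0.44 in irradiated cells (adjusted p = 0.0594). At each of these times 1 control array was not well above background, so these sizes are not precise either. The irradiated calls at 0.5 and 2 h were lost without replicate 2 and with no replicate block. The 2 h call was also lost without replicate 1 or 3. Irradiated cells exceeded bystander cells by 1.49 ± 0.12 at 4 h (2.81-fold, adjusted p = 0.429) and by 1.14 ± 0.21 at 6 h. The 4 h test shared its spread with the control arrays, dim ones included (standard error 0.324). In the averaged irradiated against control test (background 0.487%) it was called at 1.15 ± 0.27 (2.22-fold, adjusted p = 0.0288), with no call on the other 14 probes. Its size is unsure, since 6 of the 24 control arrays behind it were dim, and with normexp it was 0.58 (adjusted p = 0.0138). That count of 1 depended on the processing, with 7 probes called with no scaling, 3 with quantile normalization, 4 with normexp and 0 with the series table or no filter on dim probes. Over all probes, in either direction, 131 were called as reported, and 4532, 160, 427, 74 and 0 under those settings. Without replicate 1 or 2 that call was lost (adjusted p = 0.133 and 0.134), and without replicate 4 there were 3 calls.

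TNFRSF10B, which encodes the TRAIL receptor DR5, had 2 probes that moved together (r = 0.91 over the 24 irradiated minus bystander differences). On A_24_P218265 the control levels at 6 h were 2.56, 2.25, 3.07 and 2.80. The bystander levels were 2.99, 2.80, 3.16 and 2.71, and the irradiated levels 3.67, 3.57, 3.79 and 3.87. All irradiated samples lay above both other groups and kept within a range smaller than that of the controls. Irradiated cells exceeded control by 0.55 ± 0.15 at 2 h (adjusted p = 0.0471), 1.05 ± 0.52 at 4 h (2.08-fold, adjusted p = 0.0402) and 1.06 ± 0.25 at 6 h (2.08-fold, adjusted p = 0.00896). The 2 h call was lost without replicate 1, 2 or 3 and with no replicate block, and the 4 h call without replicate 1 (adjusted p = 0.204).

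The dimmer probe of TNFRSF10B, A_23_P169030, rose at the same late times by 0.82 ± 0.30 at 4 h (adjusted p = 0.0614) and 0.62 ± 0.22 at 6 h (adjusted p = 0.0646). The 6 h call was lost with no replicate block. This probe was also called at 0.5 h, at 0.41 ± 0.16 (adjusted p = 0.0848), and A_24_P218265 was not (0.40 ± 0.58, adjusted p = 0.231). The 0.5 h call was lost with no scaling, with no replicate block and without replicate 2. Against bystander cells the differences at 6 h were 0.81 ± 0.24 and 0.65 ± 0.13 on the respective probes, with no overlap on either.

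The decoy receptor gene TNFRSF10C (DcR1, a TRAIL receptor held by a lipid anchor) was called at 6 h. At that time the control levels were -4.21, -4.86, -3.28 and -4.01 and the irradiated levels -2.08, -2.10, -1.21 and -2.88. The bystander levels were -3.65, -3.47, -2.46 and -4.33. No irradiated sample reached down to a control sample, and bystander replicate 3 reached into the irradiated range. The irradiated minus control difference was 2.02 ± 0.67 (4.06-fold, adjusted p = 0.00593), and 1.78 over the pairs on 1 slide. The call was lost with no replicate block.

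On TNFRSF10C, 1 of the 15 probes, irradiated levels lay above all control levels at 24 h, as on 0.824% of all probes that passed. At that time the irradiated levels were -1.40, -1.96, -2.55 and -2.81 and the control levels -3.29, -3.05, -3.53 and -3.28. The difference there was 1.11 ± 0.59 (2.15-fold) and did not pass (adjusted p = 0.216). At 4 h it was 1.2 ± 0.58 (adjusted p = 0.121), and 1.46 without replicate 4 (adjusted p = 0.0342). Irradiated cells exceeded bystander cells by 1.41 ± 0.13 at 6 h (2.65-fold, adjusted p = 0.716).

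TNFRSF10D (DcR2, a decoy with a shortened death domain) was called at 6 h only. Its irradiated levels were -2.76, -2.93, -2.11 and -1.95, the control levels -3.03, -3.93, -3.62 and -3.44 and the bystander levels -2.52, -3.49, -2.73 and -3.05. Irradiated and control samples did not overlap, and bystander samples overlapped both. The difference from control was 1.07 ± 0.58 (2.09-fold, adjusted p = 0.0451), and the call was lost without replicate 2, 3 or 4 (adjusted p = 0.105, 0.12 and 0.249). It was also lost with no replicate block. At 24 h the irradiated and the bystander differences from control were 0.85 ± 0.39 and 0.78 ± 0.45 (adjusted p = 0.189 and 0.337).

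TP53I3, which encodes a quinone oxidoreductase induced by p53, lay mostly below control in both irradiated and bystander cells. Its probe is shown for comparison with those rich in G and C above, as it is 45% G and C with 3 bases in such runs.
A_23_P5392: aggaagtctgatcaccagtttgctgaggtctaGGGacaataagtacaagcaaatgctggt
At 4 h the control levels were 1.80, 1.81, 3.0 and 3.15. The bystander levels were 1.89, 1.75, 2.63 and 1.22, and the irradiated levels 1.48, 1.71, 2.77 and 1.33. The groups overlapped, and the gap to control was mostly that of the fourth experiment (-1.82 for irradiated cells).

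At 24 h the control levels of TP53I3 were 2.12, 2.35, 2.42 and 3.14, above all bystander levels (1.96, 1.97, 0.99 and 1.5). The irradiated levels were 2.18, 1.73, 0.74 and 1.83. TP53I3 was the only member probe with bystander levels below all control levels at 24 h (background 2.21% of all probes that passed). With 1 such probe, and 0 probes of the array called by limma in that comparison, the gap is given as a description. No TP53I3 difference passed the test. Averaged over the times, irradiated cells differed from control by -0.09, -0.24, -0.73 and -1.42 in experiments 1 to 4 (mean -0.62 ± 0.60, adjusted p = 0.176) and bystander cells by -0.58 ± 0.62 (adjusted p = 0.239). Of 24 irradiated minus control pairs 5 were above 0. In the same average irradiated and bystander cells differed by -0.04 ± 0.08 (95% confidence interval -0.13 to 0.06). An averaged increase of over 0.06 in irradiated relative to bystander cells is outside that interval. The interval does not bound the difference at a single time.

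**Figure D4:**
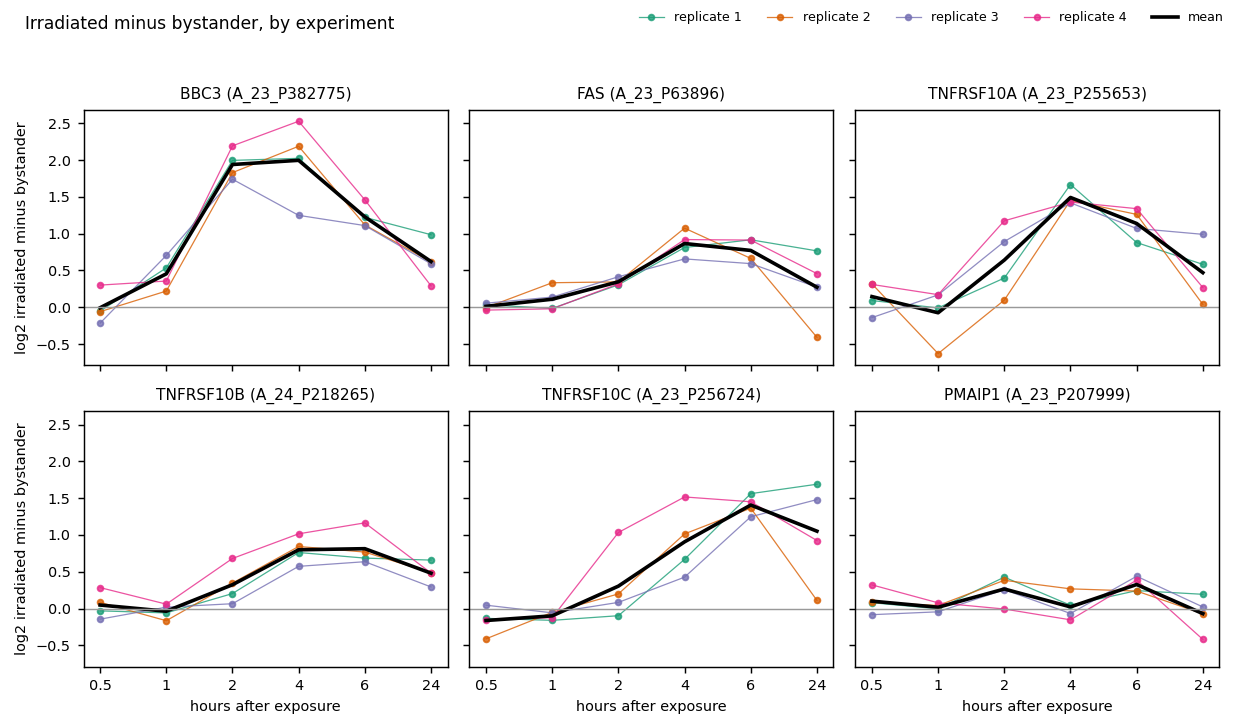
Irradiated minus bystander difference (log2) at 0.5 to 24 h for BBC3 (A_23_P382775), FAS, TNFRSF10A, TNFRSF10B (A_24_P218265), TNFRSF10C and PMAIP1, with 1 thin line for each of the 4 experiments and a thick line for their mean, on a time axis that is not to scale. BBC3 is highest at 2 and 4 h (1.94 and 2.00), FAS, TNFRSF10A and TNFRSF10B at 4 and 6 h, TNFRSF10C at 6 and 24 h (1.41 and 1.05), and PMAIP1 stays between -0.07 and 0.33.

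The direct comparison of irradiated with bystander cells at single times gave 1 call among the 15 probes, that of BBC3 A_24_P305312 at 4 h (background 0.00793%). Limma called none of them at 0.5 h (background 0%, 546 probes at an unadjusted p below 0.05), 1 h (0%, 1248 probes), 2 h (0.0436%, 282 probes), 6 h (0%, 381 probes) or 24 h (0%, 102 probes). Groups that did not overlap, irradiated above bystander, were found for 2 member probes at 2 h (0.23% of all probes that passed), 5 at 4 h (0.531%) and 4 at 6 h (0.717%). Against control the corresponding counts were 3 at 2 h (2.1%), 5 at 4 h (1.81%) and 6 at 6 h (4.1%). At 4 h 14 of the 15 probes had a positive irradiated minus bystander difference, as had 55.5% of all probes, with medians of 0.58 and 0.02.

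Averaged over the times, 7 of the 15 probes (46.7%) were higher in irradiated than in bystander cells, where 1.73% of all tested probes were. They were BBC3 A_23_P382775 and A_24_P305312, FAS, TNFRSF10A (0.64 ± 0.16, adjusted p = 0.0102), TNFRSF10B A_24_P218265 (0.41 ± 0.16, adjusted p = 0.00571) and A_23_P169030 (0.29 ± 0.09, adjusted p = 0.0161), and TNFRSF10C (0.57 ± 0.17, adjusted p = 0.00571). Without replicate 2 there were 11 calls, and 7 without any 1 of the others, while over all probes 673 were called in either direction with all replicates and 99, 2178, 227 and 469 without replicates 1 to 4. With normexp TNFRSF10A (0.15, adjusted p = 0.467) and TNFRSF10C (0.24, adjusted p = 0.184) did not pass, while the BAX probes A_23_P208706 (0.17, adjusted p = 0.0462) and A_23_P346309 (0.17, adjusted p = 0.0308) did. In each of these 7 probes all 4 experiments lay above 0. Averaged bystander against control differences gave 0 calls by limma among the 15 probes (background 0.285%, 4924 probes at an unadjusted p below 0.05). A fit with no term for the experiment gave none of the 7 calls (0 probes, adjusted p = 1 for BBC3 A_23_P382775), and neither did a fit with no filter on dim probes (0 of the 15 and 0 of all probes), so the calls depend on the pairing of dishes and on the filter.

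**Figure D5:**
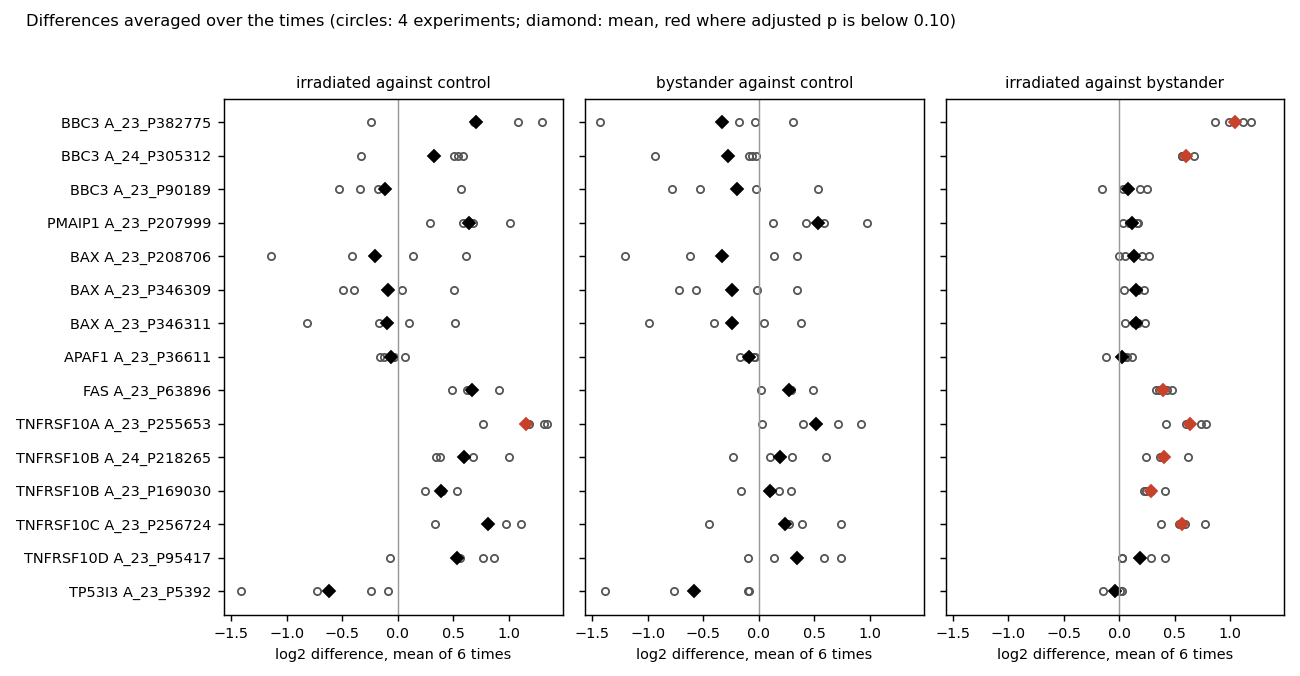
Differences (log2) averaged over the 6 times for the 15 probes in 3 comparisons, with circles for the 4 experiments and a diamond for their mean (red where the adjusted p was below 0.10). In irradiated against bystander the 4 circles of each probe lie close together and 7 diamonds are red. Against control the fourth experiment is the lowest on BBC3, BAX and TP53I3. The third also lies below 0 on several probes, among them TP53I3 and every BAX probe.

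The irradiated minus control difference changed with time in 3 of the 15 probes by the F test over the 6 times (background 0.0832% of all tested probes). They were FAS (adjusted p = 0.0838), with its means between 0.28 and 1.25, TNFRSF10A (adjusted p = 0.0443), between 0.32 and 2.19, and TNFRSF10C (adjusted p = 0.00858), between -0.18 and 2.02. Without replicate 1 or 2 there were 0 calls, without replicate 3 2, and without replicate 4 5, where 1, 4, 100 and 122 of all probes were called without replicates 1 to 4 and 21 with all. With no scaling, with normexp and with no replicate block there were also 0 calls (1, 10 and 0 over all probes), and TNFRSF10A and TNFRSF10C are dim, at 0.0404 and 0.0996 times the 75th percentile on average. For irradiated against bystander the F test called 0 of the 15 (background 0.0396%, 161 probes at an unadjusted p below 0.05).

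The genes most like each member were those whose 24 irradiated minus bystander differences had the highest Pearson r with its own. The nearest to FAS were AK056245 and FBXO22 (both r = 0.946) and the cyclin gene CCNG1 (r = 0.918). TNFRSF10A ran with TMEM217 (r = 0.901), LRDD (r = 0.887), which encodes the PIDD death domain protein, and TRIAP1 (r = 0.883). TNFRSF10B ran with VWCE (r = 0.94) and with the DNA repair gene DDB2 (r = 0.924), as did TNFRSF10C with DDB2 (r = 0.902). Least like any named gene was APAF1, whose nearest was RADIL (r = 0.683). The points of each r share arrays and experiments, and the values are descriptions.

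Other targets of p53 also rose. Of 24 tested genes such as CDKN1A, MDM2 and GADD45A, 5 were higher in irradiated cells than in control at 0.5 h, 0 at 1 h, 13 at 2 h, 13 at 4 h, 13 at 6 h and 3 at 24 h, and 0 were lower at any time. The 5 at 0.5 h stand beside 5.81% of all probes, the 13 at 2, 4 and 6 h beside 3.1%, 0.777% and 4.89%, and the 3 at 24 h beside 0.111%. In bystander cells 4 of the 24 (GADD45A, GDF15, RRM2B and PLK3) were higher than control at 0.5 h, where 4.34% of all probes were, 1 each at 2 h (PLK3, background 0.198%) and 6 h (GADD45A, 0.214%), and 0 at 4 h (0.487%). At 1 and 24 h 0 were called by limma, as over the whole array. CDKN1A, the cell cycle inhibitor p21, rose by 1.72 ± 0.39 at 2 h (adjusted p = 0.000435), and GADD45A, a stress sensor, by 1.75 ± 0.12 at 6 h (adjusted p = 0.00136). GDF15, a secreted growth factor, rose by 2.87 ± 0.96 at 4 h (adjusted p = 0.0153). Against bystander cells 7 of the 24 were higher at 2 h, among them CDKN1A at 1.51 (adjusted p = 0.0123), where 0.0436% of all probes were, and limma called 0 at each of the other 5 times, when 0 to 0.00793% of all probes were called higher, so that these counts of 0 say nothing about the list. Medians of the list against bystander cells were 0.95 at 4 h and 0.72 at 6 h. In the averaged comparison 22 were higher, with a median of 0.48 (background 1.73%).

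Of 9 further p53 genes with a role in death, LRDD rose by 0.91 ± 0.09 at 4 h (adjusted p = 0.0228) and by 0.88 at 24 h (adjusted p = 0.0657). STEAP3, an iron reductase, rose by 0.51 at 2 h and 1.01 at 6 h, and AIFM2 by 0.44 and 0.61. That list gave 2 genes higher at 2 h, 1 at 4 h, 3 at 6 h and 1 at 24 h, and 0 lower, beside the shares of all probes given above.

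Of 23 other genes of the mitochondrial route, BIRC3, an inhibitor of apoptosis, rose by 2.05 ± 0.48 at 0.5 h in irradiated cells (adjusted p = 0.0218) and by 1.94 in bystander cells (adjusted p = 0.0206). MCL1 and BIRC4, which also protect cells, rose in both at that time (0.68 and 0.66 in irradiated cells), and BOK, a relative of BAX, fell by 0.67 (adjusted p = 0.0319). The list gave 4 genes higher and 1 lower in irradiated cells at 0.5 h, where 5.81% of all probes were called higher and 4.11% lower. In bystander cells at 0.5 h 3 were higher and 1 lower (BOK, -0.64), where 4.34% and 2.81% of all probes were. In irradiated cells 1 gene was higher at 2 h (BIRC5) and 1 at 4 h (BIRC3), beside 3.1% and 0.777%. BIRC3 was also called higher in bystander cells at 4 h, beside 0.487%. At 6 h BID, CYCS, BIRC3 and BIRC5 were called higher and HTRA2 lower, 4 and 1 of 23, where 4.89% and 5.62% of all probes were, so the lower calls are near the background. Of 14 other genes of the death receptor route, TNFSF10, which encodes the ligand TRAIL, fell by 1.67 at 6 h (adjusted p = 0.0505) and TNFRSF1A fell by 0.51 at 0.5 h (adjusted p = 0.0846). These are 1 of 14 at each time, near the shares of all probes called lower (5.62% and 4.11%), and 0 of the 14 were called higher in any of these comparisons.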

How the data were processed

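RNA of 72 samples was hybridised to 1-colour Agilent whole human genome arrays, and the deposited scanner files hold intensities made by the authors with Feature Extraction 9.1.3.1, background subtracted and not scaled between arrays. The deposited series table holds log2 values of the same spots (91.74% within 0.01 of the scanner's log2) and served as an alternative. Its scale is thus known, and no centring was seen (column medians 8.433 to 10.32). Array 75th percentiles were 9.19 to 11.2 on the log2 scale, and 65.7 to 76.9% of probes were well above background.

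Spots of 1 probe were averaged, and log2 intensity minus the array's 75th percentile was taken (floor 0.01 of that percentile). A probe passed where its spot was not well above background or not uniform on at most 10% of arrays. Per time, limma 3.58.1 (R 4.3.3, eBayes with trend) was fitted on 12 arrays with the replicate number as a block. For averaged differences, 1 value per experiment was tested, and an F test over all 72 arrays asked for change over time. Of the probes that passed, 3 had too few values to be tested. P-values were adjusted by Benjamini-Hochberg with a limit of 0.10, and the code was tested on simulated data. The pairing comes from the study's methods, in which the dishes of 1 experiment shared a pool of cells. Deviations of same-numbered arrays had median correlations of 0.36 to 0.64 per time, over 0.1 in 12 of 12 pairs at 4 times and in 10 of 12 at the other two. No 2 arrays were identical.

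Alternatives were no scaling (as the methods describe), quantile normalization, normexp (offset 50), the series table, no filter, no replicate block, slide as a random or a fixed block, 1 fit of 72 arrays, and each replicate left out. The fixed slide block was added after seeing the data. Every member probe is named; likeness was ranked by Pearson r over 24 irradiated minus bystander differences. Gene lists are other p53 targets, p53 apoptosis genes, mitochondrial and death receptor pathways, and markers of fibroblasts and other cells. The members and lists were chosen with earlier results of these data known. Sequences are from the scanner files and from RefSeq's promoter table.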

Additional observations from a re-analysis of the deposited data

Results flagged for a closer look

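In 11 of 180 groups of 4 replicates (10 genes at their main probe, 18 groups each) 1 sample stood apart by Dixon's test, given below as the gap over the group's range, and chance flags about 1 in 20 groups. PMAIP1 was high in replicate 4 of the bystander cells at 2 h (1.07 with the nearest at -0.12, ratio 0.84) and of the irradiated cells at 6 h (1.21 with the nearest at 0.08, ratio 0.86). BAX was high in bystander replicate 3 at 2 h (ratio 0.913) and low in irradiated replicate 4 at 6 h (0.36 with the nearest at 2.21, ratio 0.926). FAS was low in control replicate 4 at 2 h (-1.61, ratio 0.867), and TNFRSF10A was high in control replicate 3 at 2 h (-4.57, ratio 0.883). TNFRSF10B was high in irradiated replicate 4 at 0.5 h (ratio 0.862) and at 4 h (ratio 0.835), as was TNFRSF10C at 0.5 h (-2.42 with the nearest at -3.60, ratio 0.867). TNFRSF10D was high in bystander replicate 3 at 1 h (ratio 0.913) and APAF1 in control replicate 2 at 4 h (-1.55, ratio 0.922). Of the 11, replicate 4 accounted for 7. Over all probes that passed, the arrays of replicate 4 lay at a median SD of 0.63 (irradiated), 0.64 (bystander) and 0.64 (control) from the mean of the other 3 arrays of their group, against 0.34 to 0.59 for the other replicates. The part of these arrays in the values was not tested.

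The irradiated minus control difference depended on time, by limma's F test of the differences between times, in FAS (adjusted p = 0.0838), TNFRSF10A (adjusted p = 0.0443) and TNFRSF10C (adjusted p = 0.00858). None of the 3 was called with no scaling, with normexp, with no replicate block, or without replicate 1 or 2.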

How the results depend on the processing

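Of 31 calls, 30 were kept under quantile normalization, 29 with the series table, 24 with normexp, 14 with no scaling, 9 with no filter, 6 with no replicate block and 15, 15, 20 and 23 without replicates 1 to 4. Of 23 single-time calls, 23 were kept with slide as a random block, 18 in 1 fit of 72 arrays and 10 with slide as a fixed block (added after seeing the data). FAS, TNFRSF10A and TNFRSF10B (A_24_P218265) at 6 h, irradiated against control, were kept in all 13 alternatives. Over the 18 single-time comparisons the median difference of all probes lay between -0.06 and 0.02 as reported, between -0.48 and 0.42 with no scaling and between -0.15 and 0.21 with normexp. The cause of the changes below was not tested, beyond fewer samples or more probes tested where the alternative makes them so.

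Counts of the 15 probes called that moved by over 1.5 times were as follows. Irradiated against control at 0.5 h (3) gave 0 with no scaling, 1 with normexp, 1 with no filter, 0 with no replicate block and 1 with the fixed slide block. At 2 h (5) it gave 3 with normexp, 2 with no filter, 0 with no replicate block, 1 in 1 fit of 72 arrays and 0 with the fixed slide block. At 4 h (5) it gave 1 with no scaling, 1 with no filter, 2 with no replicate block and 3 with the fixed slide block. At 6 h (7) it gave 3 with no replicate block, and at 24 h (0) 2 in 1 fit of 72 arrays. Averaged (1) it gave 7 with no scaling, 3 with quantile normalization, 4 with normexp, 0 with the series table, 0 with no filter and 2 with no replicate block. Bystander against control at 0.5 h (2) gave 0 with no scaling, no filter, no replicate block or the fixed slide block, at 4 h (0) 2 with no scaling, and at 6 h (0) 2 in 1 fit of 72 arrays. Irradiated against bystander at 2 h (0) gave 1 with no scaling, quantile normalization, normexp, the series table or 1 fit of 72 arrays. At 4 h (1) it gave 0 with no scaling, quantile normalization, no filter or no replicate block, 4 with normexp and 6 in 1 fit of 72 arrays, and at 6 h (0) 4 in that fit. Averaged (7) it gave 0 with no filter or no replicate block. Change over time against control (3) gave 0 with no scaling, normexp or no replicate block. Leaving out 1 replicate gave 0 to 4, 0 to 9, 1 to 5 and 5 to 6 for irradiated against control at 0.5, 2, 4 and 6 h, and 0 to 3 averaged. It gave 0 to 2 and 0 to 4 for bystander against control at 0.5 and 2 h, 0 to 1 and 0 to 0 for irradiated against bystander at 2 and 4 h, 7 to 11 averaged, and 0 to 5 for change over time. Over all probes, in the same order, these ranges were 0 to 1447, 25 to 4914, 25 to 334, 208 to 1862 and 40 to 150, then 0 to 1155 and 0 to 3117, 0 to 19, 0 to 0 and 99 to 2178, and 1 to 122. The sign of 1 value turned into a call: BAX A_23_P346311 in irradiated against control at 2 h ranged from -0.24 without replicate 1 to 0.26 without replicate 4 (adjusted p = 0.0883).

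Over all probes, irradiated against control at 2 h gave 1462 calls, 6927 with no scaling and 2 with no replicate block. At 6 h it gave 2654 and 48 with no replicate block, and averaged irradiated against bystander gave 673, 6867 with no scaling and 0 with no filter or no replicate block. TNFRSF10A is limited by its signal, at 0.0404 times the 75th percentile and not well above background on 6 arrays.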

Other observations

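Further values of the listed genes, beyond those printed above, are as follows. PLK3, a stress kinase and target of p53, was higher in irradiated than in control cells at 2 h by 1.5 ± 0.18 (limma adjusted p = 0.000167) and still at 24 h by 0.97 (adjusted p = 0.0484), and in bystander cells at 2 h by 0.72 (adjusted p = 0.0639). GADD45A was higher than control in bystander cells at 0.5 h by 1.16 (adjusted p = 0.0216) and at 6 h by 1.05 (adjusted p = 0.0324). FDXR, a mitochondrial reductase, rose by 1.56 in irradiated cells at 6 h (adjusted p = 0.01), and BTG2, an antiproliferative gene, was higher in irradiated than in bystander cells at 2 h by 1.67 (adjusted p = 0.0123).

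Of the 9 fibroblast markers, the median difference from control was -0.37 at 0.5 h and -0.53 at 24 h in irradiated cells and -0.42 and -0.62 in bystander cells. THY1 was lower in both at 0.5 h. PDGFRB was lower in bystander cells at 0.5 h and in irradiated cells at 2 and 6 h, and FAP was higher in irradiated cells at those times. These are 1 or 2 of 9 markers, where 4.11% (irradiated) and 2.81% (bystander) of all probes were called lower at 0.5 h, and 2.69% and 5.62% in irradiated cells at 2 and 6 h. The FAP calls stand beside 3.1% and 4.89% of all probes called higher in irradiated cells at 2 and 6 h. Between irradiated and bystander cells 0 of the 9 were called by limma, where at most 0.0436% of all probes were called higher at any single time, so that count says nothing about the markers. The COL1A2 probe had a mean level of 7.28 over the 72 arrays. The part of the markers in the differences of the death genes from control was not tested.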
